A study of Mus musculus with 24 samples.

Results

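The subject is 42 mouse genes of homologous recombination and the Fanconi anaemia pathway, followed over 4 reproductive stages in wild-type and mutant mice. They were taken from a list of repair genes, in which Brca1, its direct binding partners and the checkpoint kinases were kept apart. Each gene was represented by the probe set whose platform annotation gives that symbol and no other. Of the 42 genes, 39 had such a probe set, 1 each, while Fanca, Rad54b and Xrcc2 had none and are not analysed here. A gene was tested where at least 3 of 24 arrays lay above the median of their own array, which left 35 of the 42 among 15234 genes tested in all. The 4 genes under this filter were Fancb (log2 levels of 4.30 to 5.54 over the 24 arrays), Fancc (4.60 to 5.31), Eme1 (4.42 to 5.52) and Rmi1 (3.36 to 4.87). All 35 genes also passed it without the dp12 arrays, the stage at which most of them were highest.

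Homologous recombination repairs a double-strand break by copying the intact sister chromatid. The break is sensed and marked on chromatin, its ends are resected to single strands, these pair with the intact copy with the help of mediators and motor proteins, and the joined strands are separated by helicases and nucleases. The Fanconi pathway handles crosslinked DNA: a core complex attaches ubiquitin to the Fancd2-Fanci pair at a stalled replication fork, nucleases cut the crosslink out and recombination restores the fork. Many of these genes are transcribed mostly in S and G2 phase, and the mammary epithelium divides heavily during pregnancy.

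The series, whose title names BRCA1, DNA replication forks and oestrogen signalling in pregnancy, holds 24 single-colour arrays of total RNA, 12 from wild-type and 12 from mutant mice. Both genotypes share a mixed strain background of 80% FVB, 10% 129SVEV and 10% Black Swiss. There are 3 arrays in each of 8 groups: wild type at V, dp12, dp18 and Lac10, and mutant at the same 4 codes. V is virgin in the titles, and dp and Lac are read as pregnancy and lactation. Their numbers are months in the design text, which leaves the time unsettled, and they are printed as labelled. Neither a tissue nor an allele is given in the labels. The titles of the mutant arrays carry the letters Br-M, which they do not spell out, and these mice are called mutant only. A treatment text on RNA pulled down with a tagged protein contradicts the Trizol extraction named beside it and is not settled either. The titles give each array of a group its own number and, for most, a body weight, so the arrays of a group are read as separate animals. Replicate numbers are in the titles of wild-type arrays only. Those used for mutant arrays follow the order of the arrays in the series. Where an array is called labelled, its genotype and stage are meant.

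Levels are log2 values from 1.98 to 13.5, with array medians between 5.31 and 5.62. Precision is limited by the number of arrays: the median standard error (SE) was 0.26 over the 35 genes for a comparison of 2 groups. All 8 luminal and all 7 measured basal marker genes of mammary epithelium lay above the array median on all 24 arrays. Of 8 adipocyte markers, Fabp4, Lipe and Pnpla2 did so. Correlation with the other 23 arrays, as a median, was lowest in mutant Lac10 replicate 2 (0.799), wild-type dp18 replicate 1 (0.837) and mutant dp18 replicate 1 (0.863). In 3 further arrays the milk protein gene Csn1s2b and the claudin gene Cldn4 lay nearer another stage than their own group. The array labelled wild-type Lac10 replicate 1 had Csn1s2b at 6.47 against 11.5 and 11.2, and Cldn4 at 11.0 against 8.24 and 9.03. The array labelled mutant dp18 replicate 2 had them at 10.4 against 6.30 and 5.93, and at 6.88 against 9.37 and 11.1. The array labelled mutant Lac10 replicate 1 had them at 8.19 against 10.4 and 11.3, and at 11.4 against 6.50 and 6.58. Counts for comparisons that use these arrays are given below without the first 2 and without all 3 of them.

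Promoter sequence was at hand for 32 of the 42 genes (27 of the 35 tested) in RefSeq, build GRCm38.p6, as windows from 250 bases before to 50 after each start. The windows were searched on both strands for letters found at many cell cycle genes. These were the E2F motif (TTTGGCGC, TTTCCCGC, TTTCGCGC or TTTGCCGC), the cell cycle homology region TTTGAA and the CCAAT box CCAAT. None of these overlapped another in the sequences printed. The 250 bases before the start are shown for the 3 genes with an entry that changed most from V to dp12, with matches in capitals; Exo1, second in size, has no entry. All 3 lie on the minus strand, Parpbp at chr10:88146942-88147191, Gen1 at chr12:11265808-11266057 and Blm at chr7:80534999-80535248.
Parpbp: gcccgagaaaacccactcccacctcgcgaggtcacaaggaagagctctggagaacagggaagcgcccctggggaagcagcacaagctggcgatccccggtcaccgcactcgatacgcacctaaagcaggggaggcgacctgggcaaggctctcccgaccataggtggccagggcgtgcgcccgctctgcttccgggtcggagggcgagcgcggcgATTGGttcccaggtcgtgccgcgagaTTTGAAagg
Gen1: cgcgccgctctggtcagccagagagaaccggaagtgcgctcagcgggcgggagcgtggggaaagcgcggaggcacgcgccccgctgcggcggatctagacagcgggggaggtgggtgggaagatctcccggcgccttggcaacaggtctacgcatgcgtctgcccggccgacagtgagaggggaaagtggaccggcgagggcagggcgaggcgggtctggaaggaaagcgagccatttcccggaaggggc
Blm: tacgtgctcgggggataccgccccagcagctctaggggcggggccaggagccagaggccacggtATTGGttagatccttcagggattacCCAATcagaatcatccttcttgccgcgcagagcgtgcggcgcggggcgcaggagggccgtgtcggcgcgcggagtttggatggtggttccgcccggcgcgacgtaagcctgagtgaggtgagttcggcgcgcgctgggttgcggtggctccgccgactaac
Parpbp holds a CCAAT box read on the opposite strand from -35 to -31 and TTTGAA from -9 to -4, counted back from the start, with a further TTTGAA on the opposite strand at 14 to 19 beyond it. Blm holds a CCAAT box on the opposite strand from -186 to -182 and another on the same strand from -161 to -157. Gen1 holds none of the motifs, and neither do the 2 entries of Rad18. Over the 27 tested genes with an entry, the E2F motif was found in 3 (11.1%, against 2.6% of 27025 genes in the table), TTTGAA in 4 (14.8% against 20.2%) and CCAAT in 14 (51.9% against 41.1%). A match is a description of these letters, not of a bound site.

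Most of the module peaked at dp12. With the genotypes averaged, 33 of the 35 genes had their highest stage mean there. The exceptions were Fancf, a core complex adaptor (highest at V), and Helq, a helicase of crosslink repair (highest at Lac10). Among single groups, 25 genes were highest in mutant dp12, 7 in wild-type dp12, 2 in mutant V and 1 in mutant Lac10. The share of all genes tested that peaked at dp12 is not given here. With the genotypes averaged, the median difference over all genes tested was 0.13 from V to dp12. It was -0.19 from dp12 to dp18 and -0.16 from dp12 to Lac10. A test of any difference among the 4 stages (moderated F test in limma, Benjamini-Hochberg adjustment over 15234 genes, threshold 0.05) was passed by 18 of the 35 genes, against 17.8% of all genes tested. It was passed by 21 without the first 2 arrays named above (20.1% of all genes), by 20 without all 3 (27.3%), by 7 with each array centred on the median of 22 housekeeping genes (19.8%) and by 33 with array weights (71.6%). The smallest adjusted p-values were those of Parpbp (7.94e-05), Fancl (0.000195), Fancd2 (0.000225) and Exo1 (0.000294). The samples are bulk RNA, in which fewer cells of a type and less RNA per cell cannot be told apart.

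**Figure D1:**
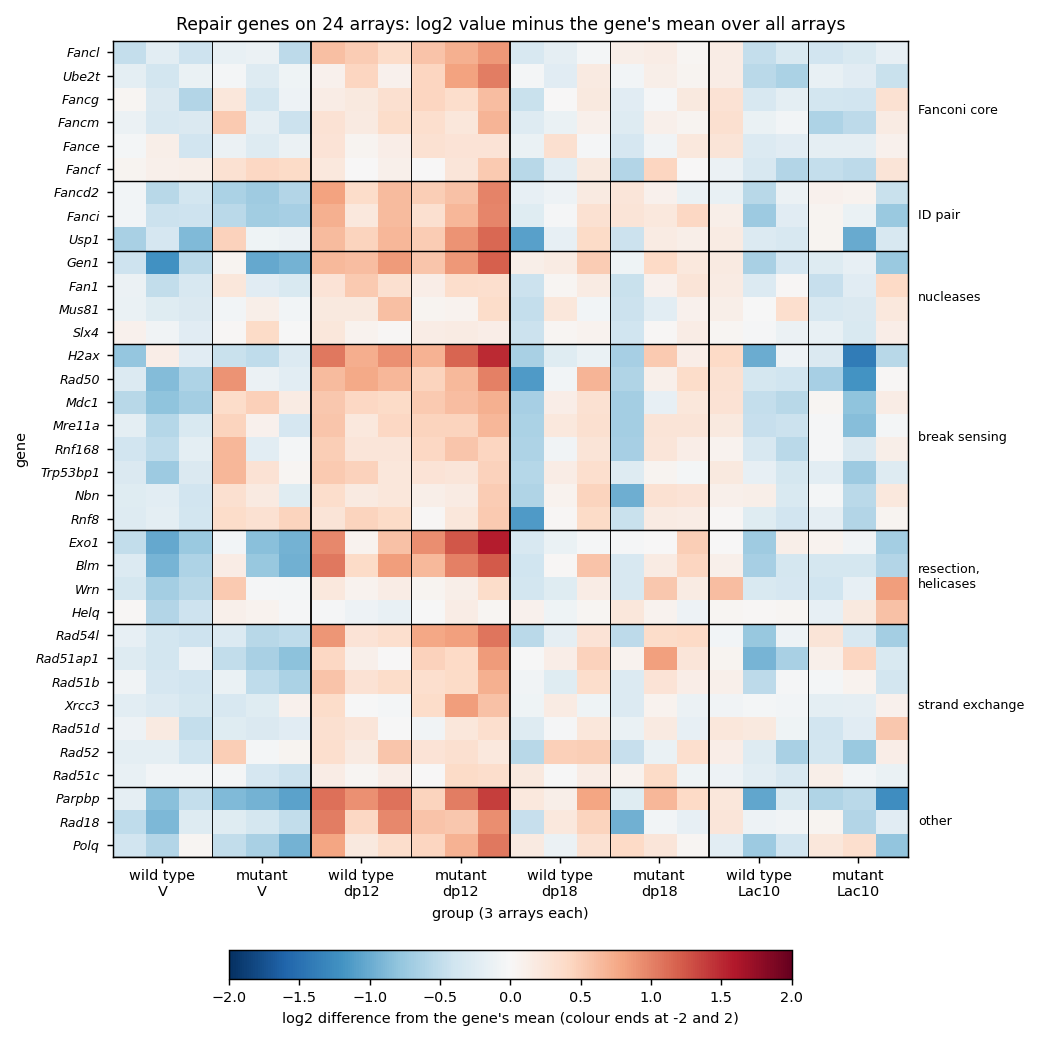
Log2 value of each of the 35 tested repair genes on each of the 24 arrays, minus that gene's mean over all arrays (colour, red above and blue below the mean), with genes in rows grouped by role and arrays in columns grouped by stage and genotype. The 6 dp12 columns are red in nearly every row, while Slx4 and Helq vary little.

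From V to dp12 with the genotypes averaged, 20 of the 35 genes rose and none fell, against 13% of all genes tested that rose and 2.8% that fell. Their median difference was 0.60, against 0.13 for all genes tested, and 34 of 35 were higher at dp12. The 6 largest rises were those of Parpbp (1.72), Exo1 (1.57), Gen1 (1.47), Blm (1.43), H2ax (1.36) and Rad18 (1.20). The only lower value was that of Fancf at -0.05 (SE 0.18), which was 0.025 with each array centred on its own median. Every role contributed: 3 of 6 tested core complex genes rose, 3 of 3 around Fancd2-Fanci, 2 of 4 nucleases, 3 of 8 break-sensing genes, 2 of 4 resection and helicase genes, 4 of 7 strand-exchange genes and 3 of 3 in end joining, anti-recombination and damage bypass. With housekeeping centring, a scaling that shifts the median of all genes by -0.36, 11 of the 35 rose, against 5.43% of all genes that rose and 10.4% that fell, and 25 of 35 were higher. With array weights 32 rose, against 41.1% of all genes.

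Taken by genotype, 10 of the 35 genes rose in wild type (5.91% of all genes tested rose) and 15 in mutants (3.02%), and none fell in either (0.538% and 1.42% of all genes). The median difference was 0.68 in wild type, where the median of all genes was 0.28, and 0.51 in mutants, where it was 0.01. The 3 arrays of dp12 lay wholly above those of V for 30 genes in wild type, against 41.7% of all genes tested, and for 22 genes in mutants, against 22.1%. The 7 genes that rose in both genotypes were Fancd2, Fancl, Rad18, Blm, Exo1, Gen1 and Parpbp, which is 70% of the wild-type list and 46.7% of the mutant list. Usp1, Mdc1 and Trp53bp1 passed in wild type and not in mutants. Fanci, Polq, Rad51ap1, Rad54l, H2ax, Xrcc3, Ube2t and Rad51b passed in mutants and not in wild type.

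Passing in one genotype alone is not a difference between them. The test of that difference was passed by 0 of 35 genes (limma, 0.00656% of all genes tested), with 3 at an unadjusted p under 0.05, against 5.95% of all genes. Those 3 were Trp53bp1 and Mdc1, with a mutant step minus wild-type step of -0.84 (SE 0.34) and -0.85 (SE 0.41), and Rad51ap1, with 0.80 (SE 0.36), each with an adjusted p of 0.695. With the 4 groups of this step fitted alone, Mdc1 (adjusted p = 0.0192), Rnf8 (adjusted p = 0.0372) and Rad51ap1 (adjusted p = 0.0493) passed, against 10.3% of all genes, and with array weights 7 did, against 28.2%. The wild-type count rests on single arrays: it was 0 without any one of wild-type dp12 replicate 1, wild-type V replicate 2 or wild-type V replicate 3, and 6 and 4 without wild-type dp12 replicates 2 and 3. It was 17 without wild-type dp18 replicate 1 and 16 without mutant Lac10 replicate 3, while the share of all genes called ran from 0% to 17.4% as each of the 24 arrays was left out. The mutant count was 7 without mutant dp12 replicate 3 and 8 without mutant V replicate 2, with 1.72% to 5.58% of all genes called over the 24 omissions. Housekeeping centring left 0 in wild type (1.26% of all genes called) and 7 in mutants (6.72%), with 26 of 35 genes higher in each.

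**Figure D2:**
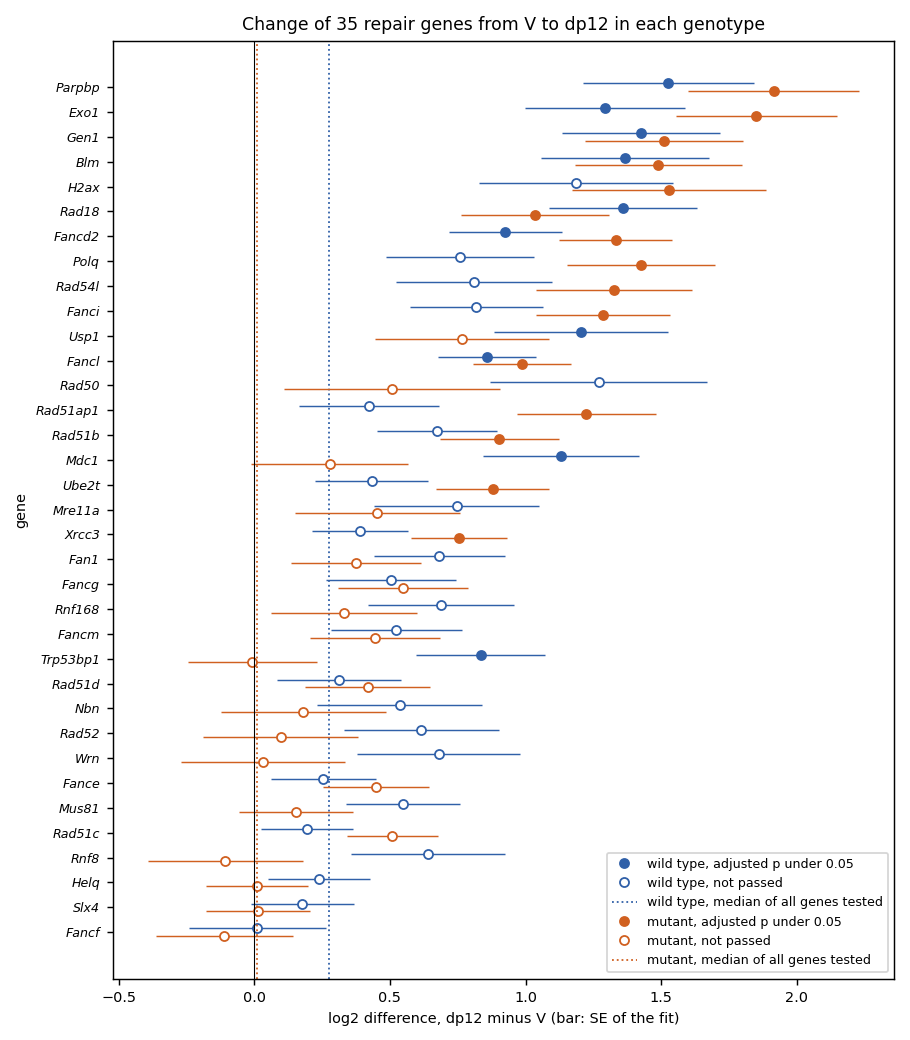
Log2 difference between dp12 and V for each of the 35 repair genes (points, with bars for the SE of the fit) in wild type (blue) and mutants (orange), filled where the adjusted p is under 0.05; dotted lines mark the median of all 15234 genes in each genotype. Parpbp, Exo1, Gen1 and Blm lie at the top with filled points in both genotypes, and Fancf at the bottom lies at 0.01 and -0.11.

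In the Fanconi core complex and its ubiquitin-conjugating enzyme, the genes that rose from V to dp12 with the genotypes averaged were Fancl, the ubiquitin ligase subunit, Ube2t, the conjugating enzyme, and Fancg, a core subunit. Ube2t was at 5.10, 4.94 and 5.17 on the 3 wild-type arrays of V, 5.38, 5.73 and 5.39 at dp12, 5.26, 5.08 and 5.49 at dp18 and 5.45, 4.77 and 4.67 at Lac10. In mutants Ube2t was at 5.26, 5.05 and 5.22 at V, 5.73, 6.10 and 6.33 at dp12, 5.25, 5.42 and 5.36 at dp18 and 5.16, 5.08 and 4.86 at Lac10. All 3 mutant dp12 arrays lay above the other 21 arrays, the lowest of them only just, whereas the wild-type dp12 arrays overlapped those of dp18 and Lac10. The rise was 0.88 in mutants (SE 0.21, 1.84-fold, adjusted p = 0.0176) and the difference was 0.43 in wild type (SE 0.21, adjusted p = 0.156). Fancl was at 5.56, 5.82 and 5.61 on the 3 wild-type arrays of V, 6.63, 6.54 and 6.41 at dp12, 5.71, 5.85 and 6.00 at dp18 and 6.18, 5.56 and 5.73 at Lac10. In mutants Fancl was at 5.88, 5.91 and 5.50 at V, 6.60, 6.75 and 6.90 at dp12, 6.14, 6.17 and 6.08 at dp18 and 5.65, 5.72 and 5.86 at Lac10. All 6 dp12 arrays lay above all 18 others. Fancl rose by 0.86 in wild type (SE 0.18, 1.81-fold, adjusted p = 0.0132) and by 0.99 in mutants (SE 0.18, 1.98-fold, adjusted p = 0.00229).

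Fance, which bridges the core complex to Fancd2, had the smallest spread of group means in this role, 0.45. Fance was at 7.03, 7.19 and 6.68 on the 3 wild-type arrays of V, 7.34, 7.13 and 7.20 at dp12, 6.94, 7.39 and 7.04 at dp18 and 7.33, 6.80 and 6.84 at Lac10. In mutants Fance was at 6.95, 6.81 and 6.95 at V, 7.37, 7.33 and 7.35 at dp12, 6.74, 7.00 and 7.28 at dp18 and 6.89, 6.89 and 7.16 at Lac10. The groups overlapped in wild type, and in mutants the dp12 arrays lay above the other 9. Its difference from V to dp12 was 0.25 in wild type (adjusted p = 0.351) and 0.45 in mutants (adjusted p = 0.255). Fancg rose by 0.53 with the genotypes averaged (SE 0.17, adjusted p = 0.0405), while Fancm, the translocase that anchors the complex to DNA, was at 0.48 (SE 0.17, adjusted p = 0.0582).

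The Fancd2-Fanci pair is the substrate of the core complex, and Usp1 takes the ubiquitin off it again. All 3 genes rose from V to dp12 with the genotypes averaged, Fancd2 by 1.13 (SE 0.15, adjusted p = 4.23e-05), Fanci by 1.05 (SE 0.17, adjusted p = 0.00043) and Usp1 by 0.98 (SE 0.23, adjusted p = 0.00595). Fancd2 was at 5.64, 5.13 and 5.32 on the 3 wild-type arrays of V, 6.49, 6.05 and 6.32 at dp12, 5.53, 5.59 and 5.87 at dp18 and 5.54, 5.13 and 5.56 at Lac10. In mutants Fancd2 was at 5.06, 4.98 and 5.11 at V, 6.18, 6.28 and 6.69 at dp12, 5.93, 5.78 and 5.56 at dp18 and 5.78, 5.76 and 5.25 at Lac10. All 6 dp12 arrays of Fancd2 lay above all 18 others. Fanci was at 5.28, 4.89 and 4.90 on the 3 wild-type arrays of V, 6.04, 5.53 and 5.95 at dp12, 5.08, 5.31 and 5.63 at dp18 and 5.45, 4.60 and 5.10 at Lac10. In mutants Fanci was at 4.78, 4.64 and 4.65 at V, 5.65, 5.99 and 6.30 at dp12, 5.59, 5.54 and 5.74 at dp18 and 5.38, 5.19 and 4.58 at Lac10. For Fanci, which had the narrowest range of group means in this role, the dp12 arrays lay above every V and Lac10 array and overlapped those of dp18 in both genotypes. Usp1 was at 6.59, 6.90 and 6.36 on the 3 wild-type arrays of V, 7.88, 7.69 and 7.90 at dp12, 6.15, 7.08 and 7.63 at dp18 and 7.41, 6.96 and 6.92 at Lac10. In mutants Usp1 was at 7.70, 7.15 and 7.13 at V, 7.75, 8.14 and 8.40 at dp12, 6.81, 7.40 and 7.36 at dp18 and 7.29, 6.24 and 6.93 at Lac10. Within each genotype the dp12 arrays of Usp1 lay above the other 9, and mutant V replicate 1 lay just above the lowest wild-type dp12 array. Usp1 rose by 1.20 in wild type (SE 0.32, 2.3-fold, adjusted p = 0.0362), and its difference was 0.76 in mutants (SE 0.32, adjusted p = 0.232), whose V arrays were higher than those of wild type.

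Of the structure-specific nucleases, Gen1, which cuts Holliday junctions, was the one that changed most, and Slx4, the scaffold that holds several nucleases, had the smallest spread of group means of all 35 genes, 0.25. Gen1 was at 5.33, 4.53 and 5.20 on the 3 wild-type arrays of V, 6.39, 6.35 and 6.59 at dp12, 5.86, 5.90 and 6.25 at dp18 and 5.92, 5.09 and 5.40 at Lac10. In mutants Gen1 was at 5.80, 4.71 and 4.80 at V, 6.30, 6.61 and 6.93 at dp12, 5.65, 6.14 and 5.95 at dp18 and 5.48, 5.58 and 4.99 at Lac10. All 6 dp12 arrays lay above all 18 others, the nearest being wild-type dp18 replicate 3. Gen1 rose by 1.43 in wild type (SE 0.29, 2.69-fold, adjusted p = 0.0125) and by 1.51 in mutants (SE 0.29, 2.85-fold, adjusted p = 0.00374). Slx4 was at 6.24, 6.08 and 5.92 on the 3 wild-type arrays of V, 6.37, 6.23 and 6.18 at dp12, 5.73, 6.20 and 6.22 at dp18 and 6.19, 6.13 and 6.04 at Lac10. In mutants Slx4 was at 6.17, 6.54 and 6.15 at V, 6.30, 6.32 and 6.29 at dp12, 5.75, 6.18 and 6.31 at dp18 and 6.01, 5.85 and 6.28 at Lac10. Over both genotypes the dp12 arrays of Slx4 lay inside the range of the V arrays, and its averaged difference was 0.10 (SE 0.13, adjusted p = 0.635). Fan1, a nuclease recruited by ubiquitinated Fancd2, rose by 0.53 (SE 0.17, adjusted p = 0.039), and Mus81, which cuts stalled forks, was at 0.35 (SE 0.15, adjusted p = 0.109).

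Among the genes that sense and mark breaks, H2ax, the histone variant phosphorylated around a break, had the widest range and Nbn, a subunit of the Mre11 complex, the narrowest. H2ax was at 6.61, 7.51 and 7.16 on the 3 wild-type arrays of V, 8.44, 8.11 and 8.29 at dp12, 6.73, 7.13 and 7.24 at dp18 and 7.78, 6.39 and 7.28 at Lac10. In mutants H2ax was at 6.93, 6.87 and 7.10 at V, 8.07, 8.54 and 8.88 at dp12, 6.71, 7.91 and 7.50 at dp18 and 7.09, 5.97 and 6.83 at Lac10. All 6 dp12 arrays lay above all 18 others. The next highest arrays were 2 of those that stood nearer another stage, labelled mutant dp18 replicate 2 and wild-type Lac10 replicate 1. H2ax rose by 1.53 in mutants (SE 0.36, 2.88-fold, adjusted p = 0.0159), and its difference was 1.19 in wild type (SE 0.36, 2.28-fold, adjusted p = 0.0507). Nbn was at 6.39, 6.42 and 6.25 on the 3 wild-type arrays of V, 6.99, 6.82 and 6.87 at dp12, 6.04, 6.71 and 7.09 at dp18 and 6.74, 6.76 and 6.33 at Lac10. In mutants Nbn was at 6.96, 6.81 and 6.39 at V, 6.76, 6.80 and 7.14 at dp12, 5.66, 6.94 and 6.91 at dp18 and 6.60, 6.10 and 6.85 at Lac10. The dp12 arrays of Nbn overlapped those of dp18 in both genotypes, and its averaged difference from V to dp12 was 0.36 (SE 0.22, adjusted p = 0.253).

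Mdc1, the adaptor that binds phosphorylated H2ax, had the largest difference between genotypes at V of all 35 genes, one that did not pass (limma, adjusted p = 0.219). Mdc1 was at 6.53, 6.27 and 6.41 on the 3 wild-type arrays of V, 7.63, 7.50 and 7.47 at dp12, 6.43, 7.22 and 7.40 at dp18 and 7.38, 6.62 and 6.54 at Lac10. In mutants Mdc1 was at 7.46, 7.57 and 7.26 at V, 7.60, 7.71 and 7.80 at dp12, 6.40, 6.93 and 7.31 at dp18 and 7.13, 6.28 and 7.23 at Lac10. The wild-type V arrays lay below all 9 arrays of mutant V and dp12, and the mutant V arrays overlapped those of wild-type dp12. Mdc1 rose by 1.13 in wild type (SE 0.29, 2.19-fold, adjusted p = 0.0308), and its difference was 0.28 in mutants (SE 0.29, adjusted p = 0.798). Rad50, which tethers the broken ends, rose by 0.89 with the genotypes averaged (SE 0.28, adjusted p = 0.0374). The remaining break-sensing genes were higher at dp12 by 0.27 for Rnf8, 0.41 for Trp53bp1, 0.51 for Rnf168 and 0.60 for Mre11a, and did not pass.

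**Figure D3:**
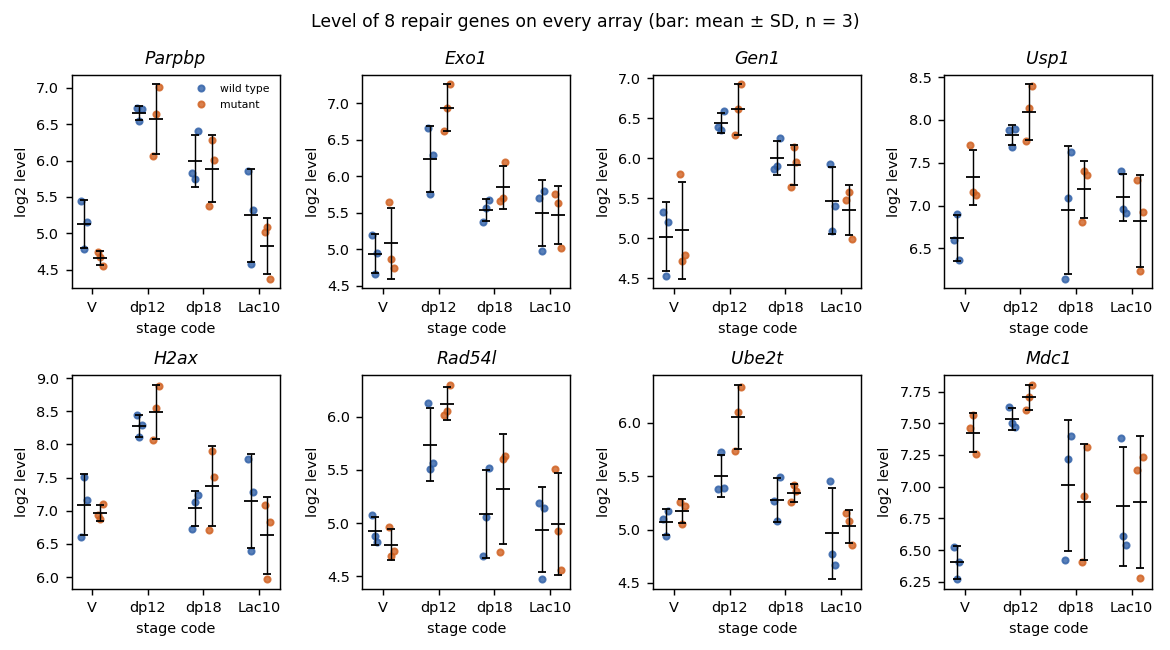
Log2 level of 8 repair genes at the stages V, dp12, dp18 and Lac10 (horizontal axis) on every array of wild type (blue points) and mutants (orange points), with black bars for the mean ± SD of 3 arrays. Parpbp, Exo1, Gen1, Usp1 and H2ax stand highest at dp12 in both genotypes, and Mdc1 differs between the genotypes at V, with means of 6.40 in wild type and 7.43 in mutants.

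In the group of resection and helicases, Exo1, the nuclease that extends resected ends, had the widest range of group means of all 35 genes, 2.00, and Helq the narrowest of its group, 0.53. Exo1 was at 5.20, 4.66 and 4.95 on the 3 wild-type arrays of V, 6.65, 5.76 and 6.28 at dp12, 5.38, 5.56 and 5.67 at dp18 and 5.70, 4.98 and 5.80 at Lac10. In mutants Exo1 was at 5.64, 4.86 and 4.75 at V, 6.62, 6.93 and 7.26 at dp12, 5.66, 5.70 and 6.19 at dp18 and 5.76, 5.63 and 5.01 at Lac10. The mutant dp12 arrays and 2 of the wild-type dp12 arrays lay above all 18 arrays of other stages, while wild-type dp12 replicate 2 lay among them. Exo1 rose by 1.29 in wild type (SE 0.30, 2.45-fold, adjusted p = 0.018) and by 1.85 in mutants (SE 0.30, 3.61-fold, adjusted p = 0.000831). Helq was at 5.88, 5.27 and 5.44 on the 3 wild-type arrays of V, 5.84, 5.75 and 5.71 at dp12, 5.94, 5.77 and 5.89 at dp18 and 5.89, 5.87 and 5.89 at Lac10. In mutants Helq was at 5.95, 5.92 and 5.83 at V, 5.84, 6.01 and 5.89 at dp12, 6.08, 5.92 and 5.75 at dp18 and 5.69, 6.05 and 6.44 at Lac10. The 2 lowest values of Helq were wild-type V arrays and the highest was mutant Lac10 replicate 3, and its averaged difference from V to dp12 was 0.12 (SE 0.13, adjusted p = 0.524). Blm, the helicase that dissolves double Holliday junctions, rose by 1.37 in wild type (SE 0.31, adjusted p = 0.0172) and by 1.49 in mutants (SE 0.31, adjusted p = 0.00643). Wrn, a related helicase, was at 0.35 with the genotypes averaged (SE 0.21, adjusted p = 0.253).

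The strand-exchange genes of the module encode mediators and motors of strand pairing. Rad54l, the motor that drives strand pairing, had the widest range and Rad51d, a mediator of strand pairing, the narrowest. Rad54l was at 5.08, 4.88 and 4.82 on the 3 wild-type arrays of V, 6.13, 5.51 and 5.57 at dp12, 4.69, 5.05 and 5.51 at dp18 and 5.19, 4.48 and 5.15 at Lac10. In mutants Rad54l was at 4.96, 4.69 and 4.74 at V, 6.01, 6.05 and 6.30 at dp12, 4.72, 5.60 and 5.64 at dp18 and 5.51, 4.92 and 4.56 at Lac10. The mutant dp12 arrays and wild-type dp12 replicate 1 lay above all 18 arrays of other stages, and the other two wild-type dp12 arrays lay within the mutant dp18 range. Rad54l rose by 1.33 in mutants (SE 0.29, 2.51-fold, adjusted p = 0.00908), and its difference was 0.81 in wild type (SE 0.29, adjusted p = 0.0788). Rad51d was at 6.06, 6.34 and 5.69 on the 3 wild-type arrays of V, 6.48, 6.40 and 6.15 at dp12, 5.89, 6.14 and 6.39 at dp18 and 6.39, 6.35 and 6.08 at Lac10. In mutants Rad51d was at 5.92, 5.88 and 5.93 at V, 6.09, 6.38 and 6.50 at dp12, 6.03, 6.34 and 5.99 at dp18 and 5.78, 5.93 and 6.70 at Lac10. The highest value of Rad51d was mutant Lac10 replicate 3 and the dp12 arrays overlapped those of every other stage except V in mutants. With the genotypes averaged, the mediators Rad51b (0.79, SE 0.16) and Xrcc3 (0.57, SE 0.13) and the cofactor Rad51ap1 (0.82, SE 0.18) also rose from V to dp12. Rad51c was at 0.35 (SE 0.12, adjusted p = 0.0502), Rad51d at 0.37 (SE 0.16, adjusted p = 0.129) and Rad52, the annealing mediator, at 0.36 (SE 0.20, adjusted p = 0.228).

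The last role gathers Polq, the polymerase of alternative end joining, Parpbp, which restrains recombination at forks, and Rad18, the ligase that marks PCNA for damage bypass. All 3 rose from V to dp12 with the genotypes averaged. Parpbp was at 5.44, 4.79 and 5.15 on the 3 wild-type arrays of V, 6.72, 6.54 and 6.70 at dp12, 5.83, 5.75 and 6.41 at dp18 and 5.85, 4.58 and 5.32 at Lac10. In mutants Parpbp was at 4.74, 4.67 and 4.56 at V, 6.07, 6.64 and 7.01 at dp12, 5.38, 6.28 and 6.01 at dp18 and 5.02, 5.08 and 4.38 at Lac10. The dp12 arrays of Parpbp lay above every V and Lac10 array, and the lowest of them, in mutants, lay within the dp18 range. Parpbp rose by 1.53 in wild type (SE 0.31, 2.88-fold, adjusted p = 0.013) and by 1.91 in mutants (SE 0.31, 3.77-fold, adjusted p = 0.00104). Rad18 was at 6.94, 6.55 and 7.18 on the 3 wild-type arrays of V, 8.47, 7.87 and 8.41 at dp12, 6.98, 7.66 and 7.89 at dp18 and 7.69, 7.34 and 7.38 at Lac10. In mutants Rad18 was at 7.21, 7.10 and 6.96 at V, 8.02, 7.98 and 8.38 at dp12, 6.48, 7.39 and 7.28 at dp18 and 7.51, 6.87 and 7.22 at Lac10. The dp12 arrays of Rad18 lay above all others but wild-type dp18 replicate 3, which lay just above the lowest dp12 array. It rose by 1.36 in wild type (SE 0.27, adjusted p = 0.012) and by 1.03 in mutants (SE 0.27, adjusted p = 0.0331). Polq rose by 1.43 in mutants (SE 0.27, adjusted p = 0.00326) and was at 0.76 in wild type (SE 0.27, adjusted p = 0.0811).

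On the deposited scale, nearly all of the genes had lower means after dp12, and the median of all genes tested was lower too. With the genotypes averaged, 6 of the 35 genes fell from dp12 to dp18 and none rose, against 1.88% of all genes tested that fell and 0.177% that rose. These were H2ax (fell by 1.18, SE 0.25), Rad18 (fell by 0.91, SE 0.19), Exo1 (fell by 0.89, SE 0.21), Usp1 (fell by 0.89, SE 0.23), Fancl (fell by 0.65, SE 0.13) and Fancd2 (fell by 0.63, SE 0.15), with adjusted p-values between 0.0235 and 0.0483. The median difference was -0.42, against -0.19 for all genes tested, and 34 of 35 were lower, Helq at 0.05 being the exception (-0.033 with each array centred on its own median). The share of all genes that were lower is not given here. Within a genotype 0 of 35 passed (limma, 0% of all genes tested), with 11 in wild type and 14 in mutants at an unadjusted p under 0.05, against 9.69% and 13.7% of all genes tested. With array weights 15 passed in wild type, against 18.1% of all genes. Leaving out the array labelled mutant dp18 replicate 2 also gave 0 in mutants.

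The count of 6 rested on single arrays. It was 0 without any one of wild-type dp12 replicate 1 or 3, wild-type dp18 replicate 1, mutant dp12 replicate 2 or 3 or mutant dp18 replicate 1, and 3 without any one of wild-type dp12 replicate 2, wild-type V replicate 3, mutant dp18 replicate 2 or mutant V replicate 2. It was 10 without wild-type dp18 replicate 3 and 11 without mutant Lac10 replicate 2. Over the 24 omissions the share of all genes called ran from 0.0591% to 12.6%. Without the arrays labelled wild-type Lac10 replicate 1 and mutant dp18 replicate 2 the count was 3 (0.768% of all genes), and without mutant Lac10 replicate 1 as well it was 5 (1.98%). Housekeeping centring, which shifts the median of all genes by 0.34 in this step, left 0 of the 35 past the threshold (0.249% of all genes) and 26 lower. By genotype, this centring left 19 lower in wild type (median -0.021) and 29 lower in mutants (median -0.21). The 3 that fell without the arrays labelled wild-type Lac10 replicate 1 and mutant dp18 replicate 2 were H2ax, Fancl and Rad18.

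From dp12 to Lac10 20 of the 35 genes fell and none rose with the genotypes averaged, against 12.9% of all genes tested that fell and 1.47% that rose. The 6 largest were Parpbp (fell by 1.57, SE 0.22, 2.98-fold), H2ax (fell by 1.50, SE 0.25, 2.82-fold), Blm (fell by 1.23, SE 0.22, 2.34-fold), Gen1 (fell by 1.12, SE 0.21, 2.17-fold), Exo1 (fell by 1.10, SE 0.21, 2.15-fold) and Rad50 (fell by 1.07, SE 0.28, 2.1-fold). Their adjusted p-values lay between 0.000499 and 0.0195. The median difference was -0.60, against -0.16 for all genes, and Helq, at 0.13, was the only gene that was not lower (-0.00741 with array weights). The share of all genes that were lower is not given here. This step uses the same dp12 arrays as the step from V, so the lists of both are not independent. The count was 25 without the arrays labelled wild-type Lac10 replicate 1 and mutant dp18 replicate 2 (18.3% of all genes called) and 21 without mutant Lac10 replicate 1 as well (25.8%). It was 13 without either wild-type Lac10 replicate 2 (4.94%) or mutant dp12 replicate 3 (5.6%), and 7 with housekeeping centring (11.8%), which shifts the median of all genes by 0.35.

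Between dp18 and Lac10 0 of 35 genes passed with the genotypes averaged (limma, 0% of all genes tested), with 6 at an unadjusted p under 0.05, against 4.63% of all genes. The largest differences, named after their values were seen, were those of Parpbp at -0.90 (SE 0.22, adjusted p = 0.751), Gen1 at -0.55 (SE 0.21) and Rad51ap1 at -0.50 (SE 0.18). Without the arrays labelled wild-type Lac10 replicate 1 and mutant dp18 replicate 2, 0 passed (0.328% of all genes), and without all 3 arrays that stood nearer another stage Parpbp alone did (fell by 1.01, adjusted p = 0.0409, 1.59% of all genes). Within a genotype 0 passed as well, with 2 in wild type and 3 in mutants at an unadjusted p under 0.05, against 8% and 2.95% of all genes tested. Neither count changed without these 2 or 3 arrays, where 0.978% and 1.3% of all genes passed in wild type and 0% and 0.295% in mutants. With array weights 11 passed in wild type, against 25.6% of all genes.

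From V to Lac10 0 of 35 genes passed (limma), where 6.6% of all genes tested did, with 2 at an unadjusted p under 0.05, against 21% of all genes. Those 2, named after their values were seen, were Fancf at -0.53 (SE 0.18, adjusted p = 0.0814) and Exo1 at 0.47 (SE 0.21, adjusted p = 0.197). The median difference was 0.07 over the 35 genes and -0.01 over all genes, with 22 of 35 higher. Fancf alone passed without the arrays labelled wild-type Lac10 replicate 1 and mutant dp18 replicate 2 (fell by 0.58, adjusted p = 0.0466, 8.39% of all genes) and with housekeeping centring (fell by 0.54, adjusted p = 0.024, 12.5% of all genes). Without mutant Lac10 replicate 1 as well 0 passed, against 14.3% of all genes. A p that misses the threshold does not show that the levels were equal, and the SE of single genes ran to 0.28.

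No gene of the 35 passed the test of mutant against wild type at any stage. At V 0 passed (limma, 0.0263% of all genes tested), with 5 at an unadjusted p under 0.05, against 15.8% of all genes. The 4 largest differences, mutant minus wild type, were Mdc1 at 1.02 (SE 0.29, adjusted p = 0.219), Rad50 at 0.78 (SE 0.40, adjusted p = 0.335), Trp53bp1 at 0.76 (SE 0.24, adjusted p = 0.232) and Usp1 at 0.71 (SE 0.32, adjusted p = 0.297). Trp53bp1 was at 7.06, 6.63 and 7.07 on the 3 wild-type arrays of V, 7.88, 7.82 and 7.57 at dp12, 6.78, 7.50 and 7.69 at dp18 and 7.55, 7.18 and 7.00 at Lac10. In mutants Trp53bp1 was at 8.01, 7.65 and 7.39 at V, 7.62, 7.60 and 7.81 at dp12, 7.10, 7.41 and 7.31 at dp18 and 7.14, 6.62 and 7.09 at Lac10. The mutant V arrays of Trp53bp1, a reader of damaged chromatin that limits resection, lay above the wild-type V arrays and around the range of the dp12 arrays, with 1 below it, 1 within it and 1 above it. Rad50 was at 6.38, 5.78 and 6.02 on the 3 wild-type arrays of V, 7.28, 7.40 and 7.31 at dp12, 5.51, 6.59 and 7.33 at dp18 and 6.95, 6.29 and 6.25 at Lac10. In mutants Rad50 was at 7.55, 6.52 and 6.43 at V, 7.09, 7.29 and 7.65 at dp12, 6.04, 6.74 and 7.02 at dp18 and 5.98, 5.45 and 6.66 at Lac10. For Rad50 the mutant V arrays also lay above the wild-type ones, most of all replicate 1. The wild-type V arrays also stood apart as arrays: their median correlation with the other 23 was 0.907 to 0.92, against 0.953 to 0.964 for mutant V. The SD over all values of an array was 1.77 to 1.88 against 1.91 to 1.97, and the housekeeping median 8.71 to 8.84 against 8.91 to 9.12. Of the marker lists, all 8 luminal genes were higher in mutant V (median 0.41), while 18 of 21 dividing-cell genes (median -0.31), all 6 macrophage genes (median -0.49) and all 3 tested muscle genes (median -0.58) were lower, none past the threshold. On single arrays the macrophage median was 5.74, 9.12 and 8.03 in wild-type V and 6.43, 7.37 and 7.11 in mutant V. The muscle median, over 5 measured genes, was 5.63, 8.08 and 5.97 in wild-type V and 5.48, 5.74 and 6.27 in mutant V. Both were highest in wild-type V replicate 2, and the groups overlapped. The part of these array and marker differences in the repair genes was not tested.

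The roles are given here with no test between them. Of 8 break-sensing genes 7 were higher in mutant V, with a median of 0.57, and of 7 strand-exchange genes 2 were, with a median of -0.13. Parpbp had the lowest difference, -0.47. The median over the 35 genes was 0.20, the same as that over all genes tested, and 24 of 35 were higher, against 67.4% of all genes, but 12 of 35 with housekeeping centring, which shifts the median of all genes by -0.24. The mutant arrays lay wholly above those of wild type for 9 genes, against 25.5% of all genes tested, and wholly below for 4, against 8.64%. The count past the threshold was 11 with array weights, against 36.6% of all genes, and 4 without the 3 arrays of lowest correlation (Mdc1, Rnf8, Trp53bp1 and Usp1, all higher in mutants), against 20.1%. With the V arrays fitted alone Mdc1 passed, with an adjusted p of 0.0299, against 4.69% of all genes.

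At dp12 0 of 35 passed (limma, 0% of all genes tested), with 3 at an unadjusted p under 0.05, against 1.21% of all genes. The 4 largest differences were Exo1 at 0.70 (SE 0.30), Ube2t at 0.56 (SE 0.21), Xrcc3 at 0.48 (SE 0.18) and Rad51ap1 at 0.39 (SE 0.26), each with an adjusted p of 1.00. The mutant arrays lay wholly above the wild-type ones for 4 genes, against 6.69% of all genes. The median was 0.14, against -0.0035 for all genes, with 27 of 35 genes higher, against 49.1% of all genes. With housekeeping centring, which shifts the median of all genes by -0.032, 25 were higher. Of the dividing-cell markers 16 of 21 were higher in mutants (median 0.09), as were 36 of 37 replication genes (median 0.30), none past the threshold, and their part was not tested. With array weights Ube2t (0.60) and Xrcc3 (0.47) passed, against 0.952% of all genes.

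At dp18 0 of 35 passed (limma, 0% of all genes tested), with 0 at an unadjusted p under 0.05, against 0.656% of all genes. The 4 largest differences were Rad18 at -0.46 (SE 0.27), H2ax at 0.34 (SE 0.36), Exo1 at 0.31 (SE 0.30) and Fanci at 0.29 (SE 0.25). The median was 0.05, against 0.0053 for all genes, with 23 of 35 genes higher, against 51.2% of all genes, or 9 with housekeeping centring. Without the first 2 or all 3 arrays that stood nearer another stage the count stayed 0 and the median was -0.021. All 8 luminal genes were lower in mutant dp18 (median -0.70), and all 21 dividing-cell genes (median 0.28) and all 7 lymphocyte genes (median 0.96) were higher, none past the threshold. Mutant dp18 replicate 2, an array that stood nearer another stage, had a luminal median of 7.54. The other mutant arrays had 9.02 and 10.0, and wild type 9.26 to 9.94. Its lymphocyte median, over 8 measured genes, was 6.98, against 5.61 and 5.71 in the other mutant arrays and 4.96 to 5.42 in wild type. The part of these lists in the repair genes was not tested.

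At Lac10 0 of 35 passed (limma, 0.236% of all genes tested), with 1 at an unadjusted p under 0.05, against 17.6% of all genes. The 4 largest were Rad51ap1 at 0.59 (SE 0.26, adjusted p = 0.251), H2ax at -0.52 (SE 0.36), Rad50 at -0.47 (SE 0.40) and Parpbp at -0.42 (SE 0.31). The median was -0.06, against -0.19 for all genes, with 12 of 35 genes higher, against 33.6% of all genes, or 32 with housekeeping centring, which shifts the median of all genes by 0.40. The count stayed 0 without the first 2 arrays that stood nearer another stage (median 0.10, 1.77% of all genes called) and without all 3 (median 0.049, 2.44%). All 8 luminal genes (median -1.12), 20 of 21 dividing-cell genes (median -0.49) and all 6 macrophage genes (median -0.54) were lower in mutant Lac10, and 6 of 8 adipocyte genes were higher (median 0.74), none past the threshold. On single arrays the luminal median ran from 6.64 to 10.1 in mutant Lac10 and from 8.87 to 10.02 in wild-type Lac10, and the part of these lists was not tested. With array weights Rad51ap1 passed at 0.87, against 21.7% of all genes, while H2ax and Parpbp turned to 0.30 and 0.12.

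Averaged over the 4 stages 0 of 35 passed (limma, 0% of all genes tested), with 0 at an unadjusted p under 0.05, against 3.01% of all genes. The median was 0.084, against -0.0015 for all genes, with 28 of 35 higher, against 49.5% of all genes. The 4 largest differences were Exo1 at 0.28, Mdc1 at 0.27, Wrn at 0.27 and Parpbp at -0.27, with SE values between 0.14 and 0.16, and Mdc1 passed with array weights (0.37), against 0.781% of all genes. Without the first 2 or all 3 arrays that stood nearer another stage the count stayed 0, for this average and for the interaction that follows. An F test of whether the genotype difference changes over the stages was passed by 0 of 35 genes, against 0.00656% of all genes, with 2 at an unadjusted p under 0.05, against 12.4%. Its 4 smallest adjusted p-values were those of Trp53bp1 (0.366), Mdc1 (0.397), Rad51ap1 (0.427) and Xrcc3 (0.484). With array weights Mdc1, Rad51ap1, Polq, Trp53bp1 and Rnf8 passed it, against 39.3% of all genes.

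**Figure D4:**
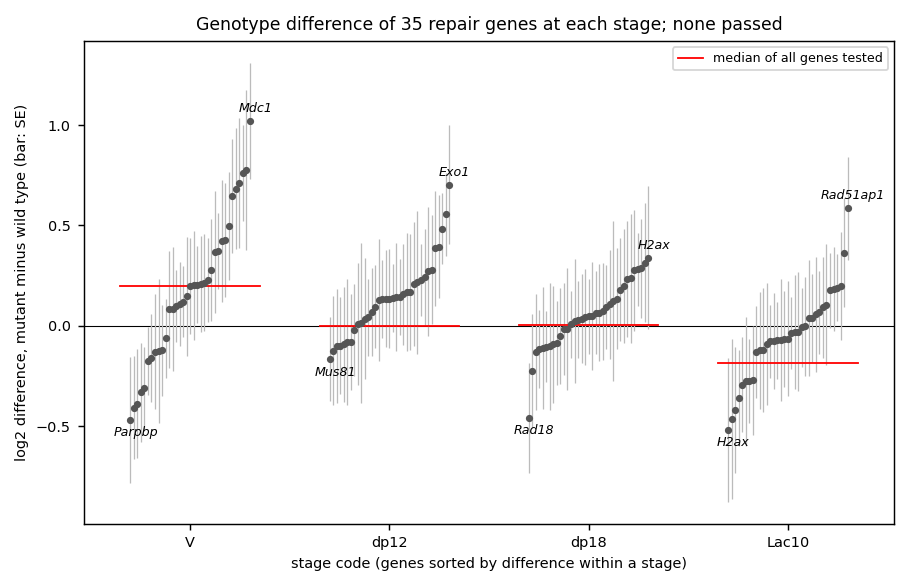
Log2 difference between mutant and wild type for each of the 35 repair genes (points, with bars for the SE of the fit), sorted within the stages V, dp12, dp18 and Lac10 on the horizontal axis; a red line marks the median of all 15234 genes at each stage. The widest spread is at V, from -0.47 for Parpbp to 1.02 for Mdc1, and no gene passed at any stage.

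Genes of neighbouring processes moved at the same time. From V to dp12 with the genotypes averaged, 9 of 15 tested genes of the list of Brca1, its partners and the checkpoint kinases rose (median 0.73), as did 25 of 52 other repair genes (median 0.52), 5 of 10 end-joining genes (median 0.48) and 33 of 37 replication genes (median 1.13). Of 22 housekeeping genes 3 rose (median 0.13), near the 13% of all genes tested that rose. The 3 largest among other repair genes were Uhrf1, which binds hemimethylated DNA, at 1.78 (SE 0.25, adjusted p = 9.65e-05), Tipin, a fork protection protein, at 1.29 (SE 0.27, adjusted p = 0.00334), and Topbp1, an activator of the Atr kinase, at 1.27 (SE 0.26, adjusted p = 0.00235). From dp12 to Lac10 the counts that fell were 7 of 15, 20 of 52, 1 of 10, 33 of 37 and 6 of 22 in the same order of lists. Of all genes tested 12.9% fell, and the end-joining count of 1 of 10 is near that share.

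Markers of dividing cells moved with the module. All 21 tested markers of the 22 listed rose from V to dp12 with the genotypes averaged (median 2.41), 6 fell from dp12 to dp18 (median -1.02) and all 21 fell from dp12 to Lac10 (median -1.83). Mki67, a protein of cycling cells, had a mean level of 6.53 ± 0.81 (SD, n = 3) in wild type and 6.21 ± 0.80 in mutants at V, and of 9.53 ± 0.16 and 9.58 ± 0.37 at dp12. It was at 8.19 ± 1.03 and 8.65 ± 0.56 at dp18 and at 8.72 ± 0.25 and 7.02 ± 1.11 at Lac10. The median of the 21 markers, each as its difference from its own mean over all arrays, ran from -1.61 to -0.44 over the 6 V arrays, from 0.99 to 1.82 at dp12, from -0.61 to 0.87 at dp18 and from -1.21 to 0.42 at Lac10. The same median over the 35 repair genes ran from -0.39 to 0.02 at V, from 0.24 to 0.68 at dp12, from -0.41 to 0.26 at dp18 and from -0.32 to 0.13 at Lac10. The part of dividing cells in the module's levels was not tested.

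From V to Lac10 with the genotypes averaged, Mki67 rose by 1.49 (limma, SE 0.38, adjusted p = 0.0218). Its mean went from 6.53 to 8.72 in wild type and from 6.21 to 7.02 in mutants. Mki67 was the 1 of 21 markers of dividing cells that passed. All 21 were higher, with a median of 0.54, and 22 of the 35 repair genes were, with a median of 0.07. No test compared the lists. Other cell types also shifted between stages. From V to dp12, 7 of 8 milk genes (median 1.40) and 5 of 7 basal genes (median 0.80) rose, and all 7 lymphocyte genes were lower without passing (median -0.50). From dp12 to Lac10, 6 of 8 luminal genes fell (median -1.51) and 2 of 8 adipocyte genes rose (median 0.79). One wild-type V array, replicate 2, had the highest muscle marker median of all 24 (8.08). The part of these shifts in the repair genes was not tested.

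**Figure D5:**
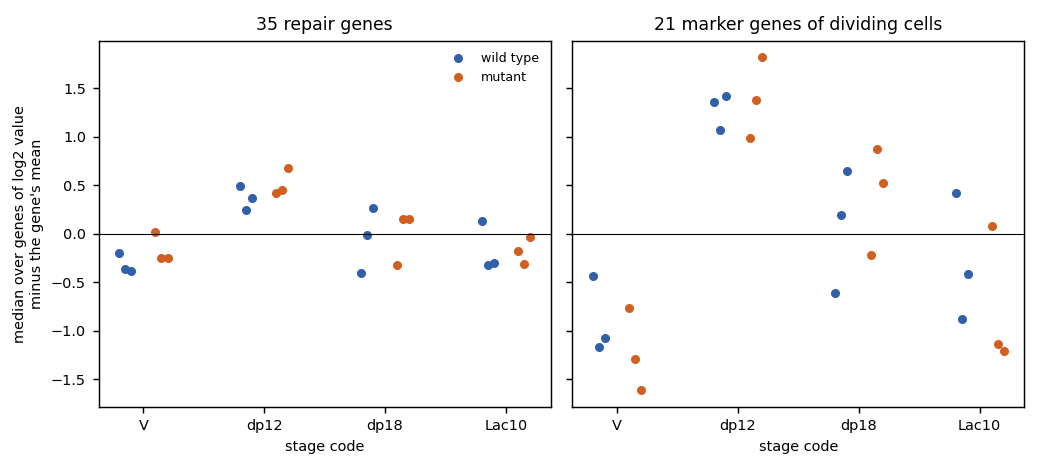
Median over the 35 repair genes (left) and over 21 marker genes of dividing cells (right) of the log2 value minus the gene's mean, 1 point for each array, by stage on the horizontal axis and in wild type (blue) and mutants (orange). The marker median is highest on the 6 dp12 arrays, at 0.99 to 1.82. The repair-gene median is 0.24 to 0.68 on the dp12 arrays. Wild-type dp18 replicate 3, at 0.26, lies above the lowest of these, wild-type dp12 replicate 2.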

How the data were processed

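Total RNA of 24 samples was hybridised to single-colour arrays. The deposited values are log2 intensities, 1 per probe set, made with RMA per the submitters' processing notes, which give no version or settings. Array medians (5.31 to 5.62) and SDs (1.65 to 1.99) still differed. The platform annotation names 1 gene for 23521 of 41345 probe sets, several for 1814 and none for 16010; only the first kind was used, for 22180 genes.

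A gene with several probe sets was represented by that of the highest mean. Genes with at least 3 arrays above the array's own median were kept, 15234 in all. limma 3.58.1 in R 4.3.3 (lmFit, contrasts.fit, eBayes) fitted 1 mean per group over 24 arrays, with 16 residual and 4.35 prior degrees of freedom. P-values were adjusted by the Benjamini-Hochberg method over the 15234 genes at a threshold of 0.05, and F tests used the same fit. The procedure was tested on simulated data with independent noise, of the same spread on every array for a given gene. Deviations of whole arrays were not simulated, so this test does not cover the differences between arrays seen here. Intensities of an array carry no count. Precision is limited by the number of arrays and by differences between them, 3 of which had a median correlation under 0.9.

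The repair genes, the other gene lists, the motifs and the tests were chosen with earlier results of these data known. In each stage step the 6 largest changes past the threshold were named, in each genotype comparison the 4 largest differences, and in each F test the 4 smallest p-values. Values on every array were given for the genes with the largest and the smallest range of group means in each of 7 roles, and, chosen after their values were seen, for Fancl, Fancd2, Mdc1, Trp53bp1 and Rad50; this is more than the 12 planned. Genes named in a stage step where none passed were also chosen after their values were seen. Alternatives were the mean of a gene's probe sets, no filter, centring on housekeeping genes or on the array median, a variance trend, array weights, leaving out arrays singly or in sets, fitting the compared groups alone, and the replicate number as a block in wild type. Leaving out the 3 arrays nearer another stage was chosen after seeing the data. Over 18 pairs of wild-type arrays with the same number, correlations of their deviations from the group means ran from -0.39 to 0.31, with 4 over 0.1, so the numbers were not taken to pair arrays.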

Additional observations from a re-analysis of the deposited data

How the results depend on the processing

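The count of the 35 repair genes past the threshold was recomputed for 19 comparisons under each alternative. Of 190 such counts 155 stayed within 1.5 times the reported one and 35 did not. Array weights gave 11 genes for genotype at V, 2 at dp12 and 1 at Lac10, 1 averaged over stages, 32 for wild-type V to dp12, 15 for wild-type dp12 to dp18, 11 for wild-type dp18 to Lac10 and 25 for mutant V to dp12. With the genotypes averaged, weights gave 32 for V to dp12, 15 for dp12 to dp18, 1 for V to Lac10 and 31 for dp12 to Lac10. They gave 7 for the difference in the first step, 5 for the interaction and 33 for any stage difference. Housekeeping centring gave 0 for wild-type V to dp12 and 7 for mutants; averaged, it gave 11 for V to dp12, 0 for dp12 to dp18, 1 for V to Lac10 and 7 for dp12 to Lac10, and it gave 7 for any stage difference. Without the 3 arrays of lowest correlation the counts were 4 for genotype at V and 23 for wild-type V to dp12, and, averaged, 0 for dp12 to dp18 and 1 for V to Lac10. Without the arrays labelled wild-type Lac10 replicate 1 and mutant dp18 replicate 2 they were 3 for dp12 to dp18 and 1 for V to Lac10, and without mutant Lac10 replicate 1 as well 1 for dp18 to Lac10. With the compared groups fitted alone they were 1 for genotype at V, 25 for wild-type V to dp12, 32 and 2 for V to dp12 and dp12 to dp18 averaged, and 3 for the difference in the first step. With the wild-type replicate number as a block, 6 passed for wild-type V to dp12; the numbers were not taken to pair the arrays, and the block moved no other wild-type count by over 1.5 times. The share of all genes called moved as well. For wild-type V to dp12 it was 63.9% with array weights, 41.2% without the arrays of lowest correlation, 39.1% with the compared groups alone and 5.13% with the block. With array weights it was 26.9% for mutant V to dp12 and, averaged, 60.2% for V to dp12, 16.8% for dp12 to dp18, 25.4% for V to Lac10 and 47.8% for dp12 to Lac10. Averaged, it was 45.0% for V to dp12 and 0.473% for dp12 to dp18 with the compared groups alone, and 0.217% for dp12 to dp18 and 15.8% for V to Lac10 without the arrays of lowest correlation. The cause of these changes was not tested.

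Leaving out 1 array at a time gave 0 to 17 genes for wild-type V to dp12 and 7 to 15 for mutants. With the genotypes averaged it gave 16 to 24 for V to dp12, 0 to 11 for dp12 to dp18, 0 to 1 for dp18 to Lac10 and for V to Lac10, and 13 to 26 for dp12 to Lac10. Any stage difference gave 15 to 22, and the other comparisons stayed at 0. With the genotypes averaged, the share of all genes called ran from 9.54% to 20.7% for V to dp12 and from 4.94% to 22.9% for dp12 to Lac10. It ran from 0% to 0.328% for dp18 to Lac10 and from 3.09% to 11.6% for V to Lac10. For any stage difference it ran from 10.1% to 24.8%. The 1 gene from dp18 to Lac10 was Parpbp, without wild-type Lac10 replicate 1. The 1 gene from V to Lac10 was Fancf, without mutant dp18 replicate 1 or mutant Lac10 replicate 3.

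For single genes 7 of 624 values, besides those without 1 array, turned in direction, none of them past the threshold. H2ax and Parpbp at Lac10 were 0.30 and 0.12 with array weights. Fancf from V to dp12 averaged was 0.025 with array median centring. Helq from dp12 to dp18 was -0.033 with array median centring, -0.021 with array weights and -0.00494 without the arrays of lowest correlation, and from dp12 to Lac10 it was -0.00741 with array weights. Leaving out 1 array at a time, Fancf from V to dp12 ran from -0.24 to 0.012 in mutants and from -0.11 to 0.012 averaged, and Rnf8 ran from -0.24 to 0.0096 in mutants, each highest without mutant dp12 replicate 1. Over the single-gene values 568 of 624 kept direction and side of the threshold, 34 lost the call and 15 gained one. Of 172 medians over the repair genes 158 moved by less than the spread between arrays and 12 turned in sign. Housekeeping centring turned 4: genotype at V (0.20 to -0.042), dp18 (0.048 to -0.12) and Lac10 (-0.064 to 0.34), and mutant dp18 to Lac10 (-0.20 to 0.092). Genotype at Lac10 was also 0.073 with array weights, 0.028 without the arrays of lowest correlation, and 0.10 and 0.049 without 2 and 3 arrays nearer another stage; genotype at dp18 was -0.021 without either set. V to Lac10 averaged was -0.0055 without 2 of them, and the difference in the first step went from 0.045 to -0.069 with array weights. Each group has 3 arrays, and 4 of the genes lay too low on the arrays to be tested.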
